A study of Drosophila melanogaster with 12 samples.

Results

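The genes described here are nuclear genes for the respiratory chain, the tricarboxylic acid (TCA) cycle and protein import into mitochondria. They are 36 of the 10047 genes in the deposited table. They were chosen by a rule on symbols, with earlier results of these data known. The rule took symbols that begin with ATPsyn, ND, Sdh, CoI, CoV, Cyt-c, Tim or Tom (a digit following ND, Tim and Tom), and added blw, cype, levy, RFeSP, ox, kdn, Acon, Mdh2, skap and Scsalpha. By function they are 3 genes of complex I, 3 of complex II, 3 of complex III with cytochrome c, 8 of complex IV, 6 of complex V, 5 of the TCA cycle and 8 of protein import. Symbols are those of the table. Of the 35 members with a current FlyBase name, 18 now carry another, such as ScsbetaA for skap, mAcon1 for Acon and COX4 for CoIV.

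The study sequenced RNA of the fat body, a storage organ with functions shared by liver and fat tissue, dissected from female Drosophila melanogaster larvae in the third, wandering instar at the end of larval life. The 12 libraries form 4 groups of 3, which are larvae labelled EcR RNAi on 0.5 M sucrose, control larvae on 0.5 M sucrose, larvae labelled EcR RNAi on 0.15 M sucrose and control larvae on 0.15 M sucrose. Fathers came from VDRC stock 37058, which carries UAS-EcR RNAi, or from VDRC control stock 60000, and the mothers of both genotypes brought UAS-Dcr2 and r4-GAL4, a driver active in the fat body. EcR encodes the receptor of the moulting hormone ecdysone, and the design asks how its knockdown, a high-sugar diet and their combination relate to gene expression. Only 1 RNAi stock was used. Whether the libraries of a group stem from independent crosses is not stated, so a p-value here measures library-to-library spread, which may be technical. The labels EcRi and control are used for the 2 genotypes from here on.

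The TCA cycle oxidises acetyl groups in the mitochondrial matrix and passes electrons to NADH and, through succinate dehydrogenase, to ubiquinone. Complexes I and II feed these electrons into the chain, complex III and cytochrome c carry them on, complex IV reduces oxygen, and complex V uses the proton gradient to make ATP. Complexes I, III, IV and V are built from subunits encoded in the nucleus and subunits encoded in mitochondrial DNA, whereas complex II is nuclear only. The nuclear products enter through the TOM complex of the outer membrane and the TIM complexes of the inner membrane, helped by small chaperones between the membranes.

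The values are the authors' normalised signal per gene, with library medians between 103 and 111 and library sums between 8864826 and 15045575. Control 0.5 M replicate 1 had that highest sum, with 47.8% of it in 10 genes, and it was the highest library for many members. EcR itself averaged 1414 in EcRi and 1454 in control libraries on 0.5 M sucrose, and 1132 in EcRi and 1380 in control libraries on 0.15 M sucrose. Neither difference was called (limma, Benjamini-Hochberg adjusted p = 0.847 and 0.386), so the level of EcR RNA does not check the label, and every genotype direction given here is that of libraries labelled EcRi. Markers of the fat body summed to 1918000 to 4200000 in every library (9 genes). Muscle markers (15 of 16 in the table) summed to 10640 to 92130 and salivary gland markers (8 of 8) to 1338 to 31410. Differences are log2(signal + 1) of the first group minus that of the second, with the standard error (SE) from 1 limma model of all 12 libraries, and a gene is called changed at an adjusted p under 0.05 over all 10047 genes. In dissected tissue, fewer cells of a type and less RNA per cell cannot be told apart.

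On 0.5 M sucrose called members lay in both directions between EcRi and control larvae. Most of the 36 had higher means on 0.5 M than on 0.15 M sucrose. All 36 passed the filter of a mean signal of at least 1, the lowest member mean being 24.4. EcRi against control on 0.5 M sucrose called 7 members, 4 higher and 3 lower, where 19.1% of all genes were called, 10.9% higher and 8.11% lower. EcRi against control on 0.15 M sucrose called 2 members, both higher, against 11.2% of all genes (6.19% higher and 5.01% lower). In EcRi larvae, 0.5 M against 0.15 M sucrose called 9 members, 8 higher and 1 lower, against 24.4% of all genes (14% higher and 10.4% lower). The same diet contrast in control larvae called 1 member, higher, against 1.72% of all genes (1.55% higher and 0.169% lower). The interaction, the diet change of EcRi minus that of control larvae, called 1 member, lower, against 3.92% of all genes (2.59% higher and 1.33% lower). With 36 members, the shares called in either direction were close to those of all genes for genotype on 0.5 M sucrose and diet in EcRi larvae. For genotype on 0.15 M sucrose the share was below that of all genes. For diet in EcRi larvae the share called higher exceeded that of all genes, and the share called lower was below it. No test was made of these counts against those of all genes. The 9 diet calls in EcRi larvae were 4 without EcRi 0.5 M replicate 1 and 5 without EcRi 0.15 M replicate 2, and they were 13 when control 0.5 M replicate 1 was left out.

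Groups whose libraries do not overlap were also counted. For EcRi against control, the 3 libraries of each group lay apart for 7 members that were higher and 6 that were lower on 0.5 M sucrose, beside 19.5% and 16.1% of all genes, and for 5 and 2 members on 0.15 M sucrose, beside 15.5% and 12.5%. For 0.5 M against 0.15 M sucrose they lay apart for 15 higher and 2 lower members in EcRi larvae, beside 24.5% and 20.2% of all genes. In control larvae this held for 8 higher and 1 lower members, beside 10.2% and 7.76%. With 36 members, the shares that were higher on 0.5 M sucrose exceed those of all genes in both genotypes, and no test was made of that excess.

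The median member difference was 0.02 for EcRi against control on 0.5 M sucrose and 0.03 on 0.15 M sucrose, beside -0.0023 and 0.04 over all genes. For diet it was 0.23 in EcRi larvae and 0.26 in control larvae, beside -0.02 and -0.01 over all genes. Of the 36 members, 28 had a higher mean on 0.5 M than on 0.15 M sucrose in EcRi larvae and 32 did so in control larvae. The group with the highest mean was EcRi 0.5 M for 17 members, control 0.5 M for 16, EcRi 0.15 M for 2 and control 0.15 M for 1. The diet median in EcRi larvae depended on the scaling between libraries: scaling to a common upper quartile gave 0.02 with -0.23 over all genes, and quantile normalisation gave 0.02 with 0.0002 over all genes. In all, 13 members were called in at least 1 of the 4 pairwise comparisons and 23 in none.

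**Figure D1:**
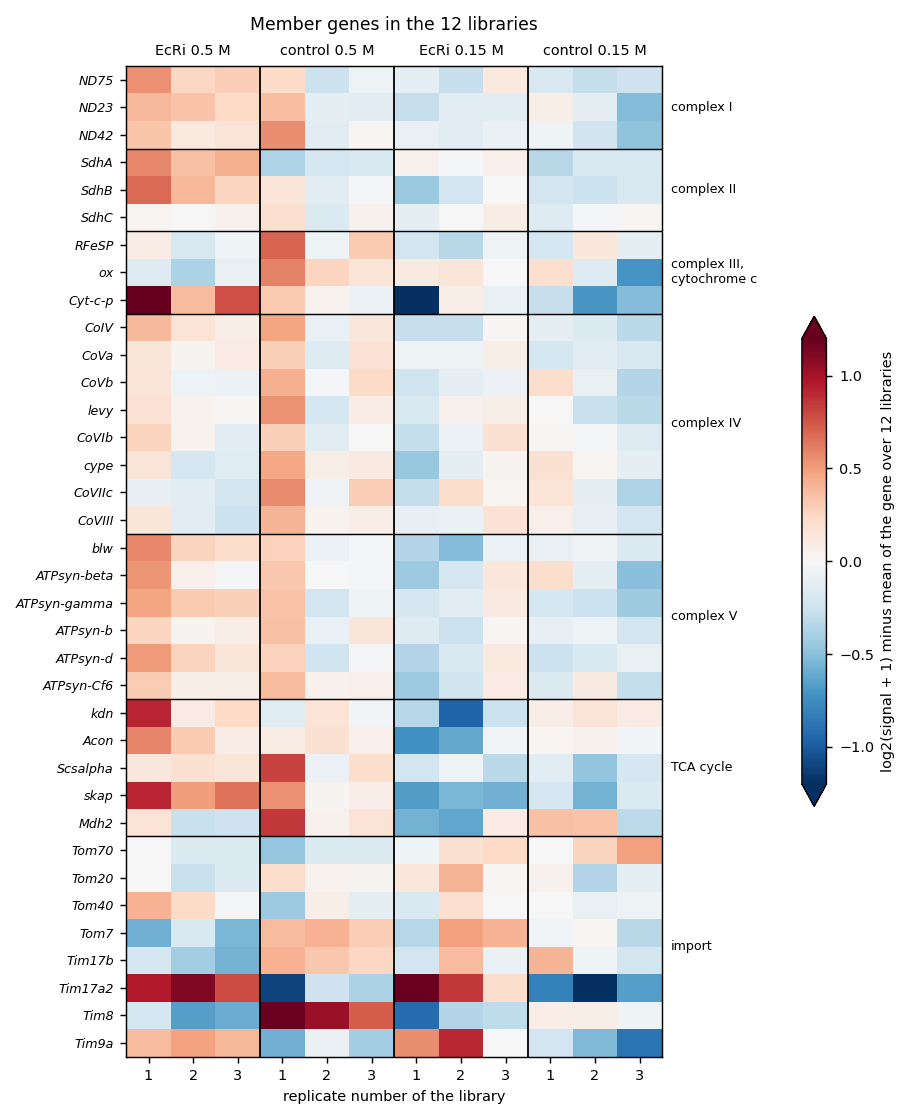
Each row is a member gene, grouped by role, and each column a library, with EcRi 0.5 M, control 0.5 M, EcRi 0.15 M and control 0.15 M from left to right. Colour is log2(signal + 1) minus the gene's mean over the 12 libraries. More rows are red on 0.5 M than on 0.15 M sucrose, Tim8 is reddest in control 0.5 M, and Tim17a2 is red in both EcRi groups.

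In the TCA cycle the diet calls were in EcRi larvae. There 3 of the 5 members rose on 0.5 M sucrose, namely skap, kdn and Acon, and the other two, Scsalpha and Mdh2, had differences of 0.36 and 0.25 that were not called. Of the same 5 in control larvae, 0 were called by limma, and 2 had an unadjusted p under 0.05. Over all genes, diet called 24.4% in EcRi larvae (14% higher) and 1.72% in control larvae. The interaction called no TCA member.

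skap encodes the beta subunit of ADP-forming succinyl-CoA synthetase, the enzyme that makes ATP from succinyl-CoA. Its signal was 3464, 2595 and 2885 in EcRi 0.5 M libraries, against 1154, 1254 and 1232 in EcRi 0.15 M libraries. Control larvae had 2689, 1879.8 and 1935 on 0.5 M sucrose, against 1591, 1237 and 1629 on 0.15 M sucrose. The 0.5 M libraries lay above the 0.15 M libraries without overlap in both genotypes. The difference was 1.29 ± 0.18 (SE) in EcRi larvae, a fold of 2.44, with limma adjusted p = 0.000178, and it was called without each library in turn. The control difference was 0.54 ± 0.18, which was not called (limma adjusted p = 0.178). The diet change was larger in EcRi larvae by 0.75 ± 0.26, and this test of the difference between genotypes was not called either (limma adjusted p = 0.105).

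kdn encodes citrate synthase, which joins acetyl-CoA to oxaloacetate and so opens the cycle. Its signal was 467, 265 and 292 in EcRi 0.5 M libraries, against 194, 127 and 206 in EcRi 0.15 M libraries. Control larvae had 223, 277 and 241 on 0.5 M sucrose, against 260.4, 274 and 265 on 0.15 M sucrose. The EcRi groups did not overlap and the control groups did. The diet difference was 0.94 ± 0.21 in EcRi larvae (limma adjusted p = 0.005) and -0.11 ± 0.21 in control larvae (limma adjusted p = 0.84). The interaction was 1.05 ± 0.30 and missed the threshold (limma adjusted p = 0.0586). All EcRi 0.15 M libraries lay under all control 0.15 M libraries, a difference of -0.63 ± 0.21 that was not called (limma adjusted p = 0.0677).

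Acon encodes aconitase, which turns citrate into isocitrate. It measured 2052, 1697 and 1457 in EcRi 0.5 M libraries, against 823, 894 and 1338 in EcRi 0.15 M libraries, with no overlap and a wide spread in both groups. The difference was 0.79 ± 0.18 (limma adjusted p = 0.00617), and 0.49 with adjusted p = 0.0514 after quantile normalisation. In control larvae the groups lay apart by little, at 1476 ± 64.9 on 0.5 M sucrose and 1382 ± 42.7 on 0.15 M sucrose (SD, n = 3 each). Scsalpha, the alpha subunit of succinyl-CoA synthetase, reached 8317 in control 0.5 M replicate 1 and stayed between 3403 and 5463 in the 11 other libraries. Mdh2, mitochondrial malate dehydrogenase, was highest in the same library, at 3734, and its groups overlapped in all 4 comparisons.

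Complex II, succinate dehydrogenase, had its calls in the 2 catalytic subunits. SdhA and SdhB were called higher in EcRi than in control larvae on 0.5 M sucrose and higher on 0.5 M than on 0.15 M sucrose in EcRi larvae, and Tom7, described among the import genes, is the other member called in both contrasts. SdhC was called in none.

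SdhA, the flavoprotein that oxidises succinate, gave 984, 845 and 889 in EcRi 0.5 M libraries, against 513, 570.2 and 584 in control 0.5 M libraries. The 0.15 M values were 686, 656 and 688 in EcRi libraries, against 526, 584 and 579 in control libraries. EcRi libraries were above control libraries without overlap on both diets. The genotype difference was 0.70 ± 0.13 on 0.5 M sucrose (limma adjusted p = 0.00078), and it was called without each library in turn. The 0.15 M difference was 0.27 ± 0.13 and not called (limma adjusted p = 0.235). The difference between the diets in that effect was 0.44 ± 0.18, not called (limma adjusted p = 0.171). The diet difference in EcRi larvae was 0.42 ± 0.13 (limma adjusted p = 0.0258), but it was 0.21 under upper quartile scaling and 0.12 under quantile normalisation, with adjusted p = 0.23 and 0.551. That call was also lost without EcRi 0.5 M replicate 1 (0.36), EcRi 0.5 M replicate 3 (0.43), EcRi 0.15 M replicate 1 (0.43) or EcRi 0.15 M replicate 2 (0.40).

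SdhB, the iron-sulphur subunit, measured 688, 569 and 516 in EcRi 0.5 M libraries, against 475, 393 and 427 in control 0.5 M libraries and 315, 367 and 429.7 in EcRi 0.15 M libraries. EcRi 0.5 M lay above both other groups without overlap. The diet difference in EcRi larvae was 0.67 ± 0.15 (limma adjusted p = 0.00479), called without each library in turn. The genotype difference on 0.5 M sucrose was 0.45 ± 0.15, at the edge of the threshold (limma adjusted p = 0.0475). It missed the threshold with the fit of its 6 libraries alone (adjusted p = 0.0865), after either rescaling, and without any 1 of 8 libraries, where it ranged from 0.33 to 0.47. Those 8 are EcRi 0.5 M replicates 1 and 2, control 0.5 M replicates 2 and 3, EcRi 0.15 M replicate 2 and the 3 control 0.15 M libraries. SdhC, a membrane anchor, averaged 426 ± 7.58 in EcRi 0.5 M, 428 ± 54.1 in control 0.5 M, 418 ± 27.9 in EcRi 0.15 M and 404 ± 25.2 in control 0.15 M libraries (SD, n = 3 each), and its 95% interval for genotype on 0.5 M sucrose ran from -0.28 to 0.28.

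**Figure D2:**
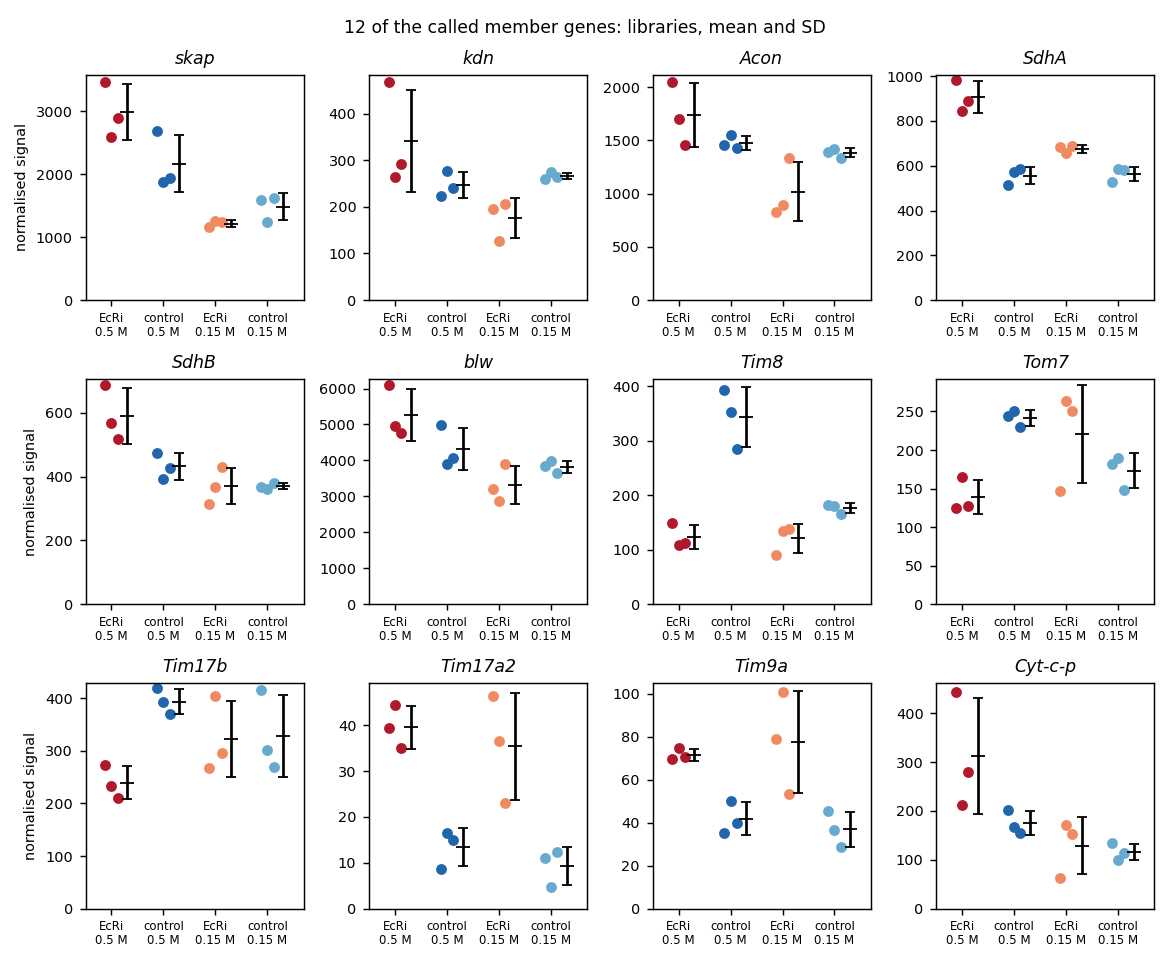
Signal of 12 called members, 1 panel each, with EcRi 0.5 M, control 0.5 M, EcRi 0.15 M and control 0.15 M from left to right. Points are the 3 libraries of a group in order of replicate number, and bars to their right are the mean and SD. skap, SdhA and SdhB have their highest means in EcRi 0.5 M, Tim8 has its highest in control 0.5 M, and Tim17a2 and Tim9a are high in both EcRi groups.

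The 3 members of complex I, the NADH dehydrogenase, showed small differences that pointed upward with sugar. All 3 members had a higher mean on 0.5 M than on 0.15 M sucrose in both genotypes, and in EcRi larvae the diets did not overlap for any of them. ND23, an iron-sulphur subunit, was the only one called. It gave 287, 277 and 259 in EcRi 0.5 M libraries, against 180.2, 200.01 and 199.8 in EcRi 0.15 M libraries. Control larvae had 281, 203 and 200.4 on 0.5 M sucrose, against 229, 201 and 152 on 0.15 M sucrose, which overlap. The difference in EcRi larvae was 0.50 ± 0.17 (limma adjusted p = 0.0416). It lost the call after either rescaling (0.30 and 0.34) and without any of the 6 EcRi libraries or control 0.15 M replicate 2 (0.45 to 0.54). ND75, the large iron-sulphur subunit of the catalytic arm, had a difference of 0.45 ± 0.16 there (limma adjusted p = 0.0519), and ND42, an accessory subunit, one of 0.30 ± 0.17. Of 30 other nuclear complex I genes, 24 had positive and 6 negative diet differences in EcRi larvae, the lowest at -0.93. Limma called 1 of them higher and 2 lower there, beside 14% and 10.4% of all genes. In control larvae all 30 differences were positive and 0 were called.

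Complex III and cytochrome c went different ways. Cyt-c-p, the cytochrome c expressed through most of the body, rose on sugar in EcRi larvae, while ox, a small complex III subunit, and RFeSP, the Rieske iron-sulphur protein, were called in no comparison. Cyt-c-p gave 443, 213 and 279.9 in EcRi 0.5 M libraries, against 61.7, 172 and 154 in EcRi 0.15 M libraries. Control larvae had 202, 168 and 155 on 0.5 M sucrose, against 134, 100.1 and 113 on 0.15 M sucrose. The diets did not overlap in either genotype, but the EcRi libraries were widely spread, and EcRi 0.5 M replicate 1 was the highest of the 12. The difference was 1.33 ± 0.36 in EcRi larvae (limma adjusted p = 0.019). It was 1.04 without EcRi 0.5 M replicate 1, which ended the call (adjusted p = 0.0736), and the fit of the 6 libraries alone did not call it (adjusted p = 0.102). The control difference was 0.59 ± 0.36 (limma adjusted p = 0.475). For ox, all EcRi libraries lay under all control libraries on 0.5 M sucrose, with a difference of -0.54 ± 0.20 that was not called (limma adjusted p = 0.0681).

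Complex IV, cytochrome c oxidase, had no called member: limma called 0 of its 8 nuclear members in any of the 5 comparisons. Over all genes the pairwise comparisons called between 1.72% and 24.4%, and the interaction 3.92%. At an unadjusted p under 0.05, 1 member passed in each of 3 pairwise comparisons and 0 in EcRi against control on 0.15 M sucrose. The 8 differences lay between -0.42 and 0.04 for genotype on 0.5 M sucrose, between -0.21 and 0.18 for genotype on 0.15 M sucrose, between -0.13 and 0.39 for diet in EcRi larvae and between 0.11 and 0.38 for diet in control larvae. CoIV (subunit 4) had the smallest p, for diet in EcRi larvae. It gave 1757, 1503 and 1413 in EcRi 0.5 M libraries, against 1105, 1102 and 1354 in EcRi 0.15 M libraries, and 1857, 1255.5 and 1469.7 in control 0.5 M, against 1239, 1194 and 1069.7 in control 0.15 M libraries. The 0.5 M libraries were the higher ones in both genotypes, without overlap. Its differences were 0.39 ± 0.17 in EcRi larvae (limma adjusted p = 0.102) and 0.37 ± 0.17 in control larvae (limma adjusted p = 0.334). CoVa (5A), CoVb (5B), levy (6A), CoVIb (6B), cype (6C), CoVIIc (7C) and CoVIII (8) were each highest in control 0.5 M replicate 1.

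Among the 6 members of complex V, the ATP synthase, differences between diets were small and of 1 sign. All 6 members had higher means on 0.5 M than on 0.15 M sucrose in both genotypes, by 0.25 to 0.67 in EcRi and by 0.16 to 0.32 in control larvae, and 1 of these 12 differences was called. It was that of blw, the alpha subunit of the catalytic F1 head. blw gave 6106, 4945 and 4757 in EcRi 0.5 M libraries, against 3213, 2861 and 3903 in EcRi 0.15 M libraries. Control larvae had 4980.5, 3897 and 4063 on 0.5 M sucrose, against 3859, 3983 and 3652 on 0.15 M sucrose. The EcRi groups did not overlap, and the control groups did. The difference in EcRi larvae was 0.67 ± 0.18 (limma adjusted p = 0.0129), not called after quantile normalisation (0.34) or without EcRi 0.5 M replicate 1 (0.56) or EcRi 0.15 M replicate 2 (0.56). ATPsyn-beta, the catalytic F1 subunit, overlapped between groups in every comparison, with a diet difference of 0.35 ± 0.22 in EcRi larvae. The other F1 and stalk members, ATPsyn-gamma, ATPsyn-b, ATPsyn-d and ATPsyn-Cf6, had diet differences of 0.43, 0.25, 0.45 and 0.34 there. Of 7 other nuclear complex V genes, 5 had positive and 2 negative diet differences in EcRi larvae, from -0.27 to 0.41. In control larvae all 7 were positive, and diet called 0 of the 7 in either genotype.

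**Figure D3:**
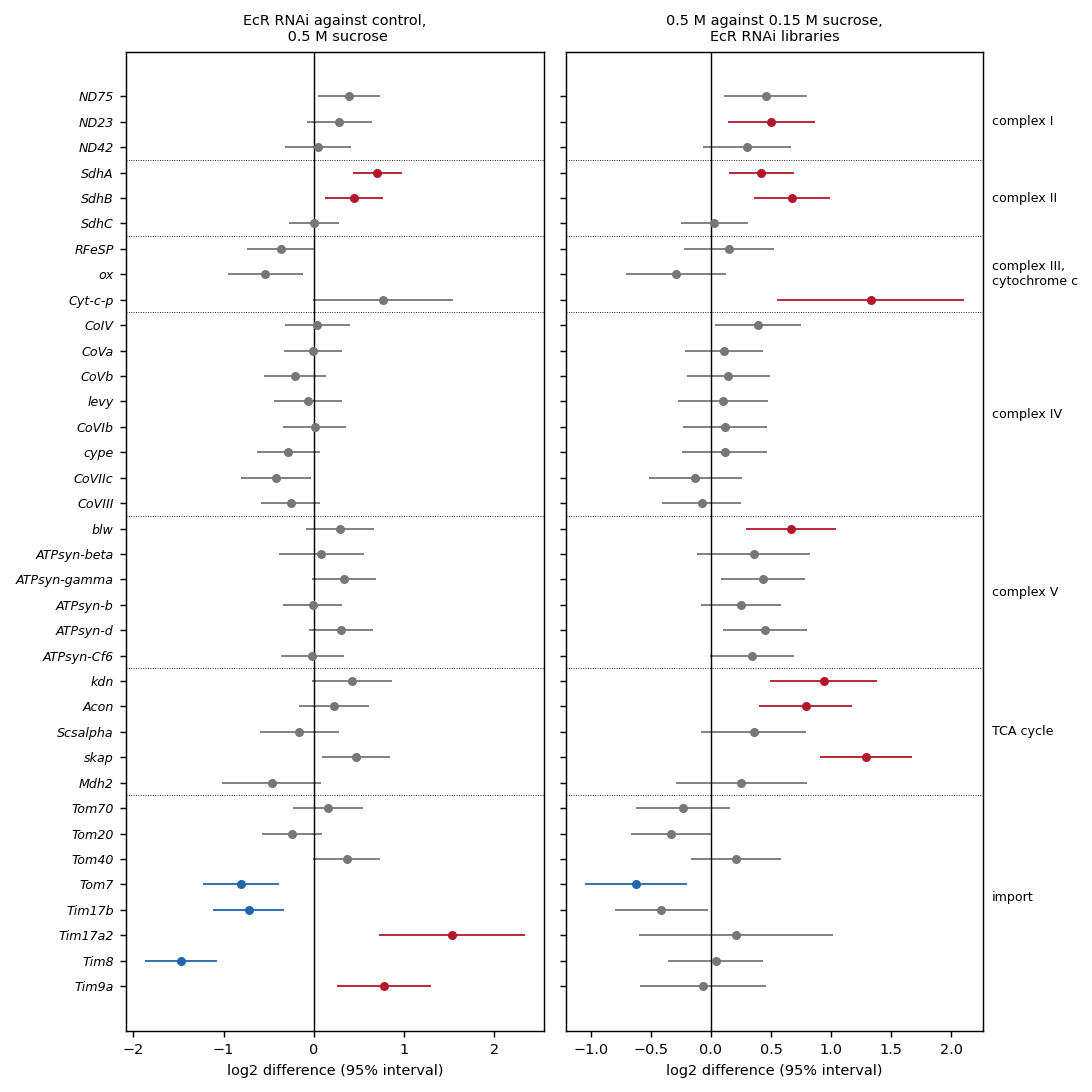
Log2 difference of each member with its 95% interval, grouped by role, for EcRi against control on 0.5 M sucrose (left) and for 0.5 M against 0.15 M sucrose in EcRi larvae (right). Red marks members called higher and blue members called lower. On the left 5 of the 7 calls are import genes, and on the right 8 of the 9 calls are higher.

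Import members with Tim and Tom symbols were called in both directions between EcRi and control larvae. On 0.5 M sucrose 5 of the 8 were called, beside 19.1% of all genes, with Tim17a2 and Tim9a higher and Tim8, Tom7 and Tim17b lower. Of 7 import genes outside these symbols, limma called 0 for genotype on either diet, with 1 at an unadjusted p under 0.05 on 0.5 M and 0 on 0.15 M sucrose. On 0.15 M sucrose Tim17a2 and Tim9a were called higher as well, and they are the 2 member calls of that comparison. In the outer membrane, the receptors Tom70 and Tom20 and the channel Tom40 were called in none of the 5 comparisons. Salivary gland markers differed between the same groups, with sums of 2098 to 7177 in EcRi and 7381 to 31410 in control libraries on 0.5 M sucrose, and of 1338 to 3859 in EcRi and 20210 to 23830 in control libraries on 0.15 M sucrose. Of the 8 markers, 4 were called lower on 0.5 M and 7 on 0.15 M sucrose, and their part in the member differences was not tested.

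Tim8, a small chaperone that guides hydrophobic proteins across the space between the membranes, had the smallest p of all members. It gave 148, 108 and 113 in EcRi 0.5 M libraries, against 393, 353 and 285 in control 0.5 M libraries. The 0.15 M values were 90.4, 134 and 139 in EcRi libraries, against 182, 181 and 166 in control libraries. EcRi was lower than control without overlap on both diets, and the 2 diets lay apart in control larvae but not in EcRi larvae. The genotype difference was -1.47 ± 0.19 on 0.5 M sucrose, a fold of 0.36, with limma adjusted p = 2.83e-05, and it was called without each library in turn. It was -0.56 ± 0.19 on 0.15 M sucrose, not called (limma adjusted p = 0.068). The diet difference was 0.04 ± 0.19 in EcRi larvae and 0.95 ± 0.19 in control larvae, where it was the one member called (limma adjusted p = 0.0146). The control call was lost without control 0.5 M replicate 1 (0.85, adjusted p = 0.0611) or control 0.15 M replicate 3 (0.91, adjusted p = 0.0681). The difference between the genotypes' diet changes was -0.91 ± 0.26 and was not called (limma adjusted p = 0.0637).

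After Tim8, the smallest p values for diet in control larvae belonged to skap, Scsalpha and Tom70. Scsalpha was 0.59 ± 0.21 higher and Tom70 0.52 lower (-0.52 ± 0.18), neither called (limma adjusted p = 0.205 and 0.207). Tom70 gave 52.6, 64.8 and 64.5 in control 0.5 M libraries, against 73.1, 87.7 and 103 in control 0.15 M libraries. It was the one member whose control libraries were lower on 0.5 M sucrose without overlap.

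Tom7, a small TOM subunit that in yeast affects assembly of the complex, gave 125, 165 and 127 in EcRi 0.5 M libraries, against 244, 251 and 230.5 in control 0.5 M libraries. The 0.15 M values were 147, 263 and 251 in EcRi libraries, against 183, 189.8 and 148 in control libraries. EcRi lay under control on 0.5 M sucrose, and the groups overlapped on 0.15 M sucrose, where EcRi replicate 1 was as low as the lowest control. The genotype difference was -0.80 ± 0.20 on 0.5 M sucrose (limma adjusted p = 0.00884) and 0.31 ± 0.20 on 0.15 M sucrose (limma adjusted p = 0.428). The diet difference was -0.63 ± 0.20 in EcRi larvae, whose diets overlapped in 1 library (limma adjusted p = 0.0323), and 0.48 ± 0.20 in control larvae (limma adjusted p = 0.291). Tom7 was the one member called in the interaction, at -1.11 ± 0.28 (limma adjusted p = 0.0396). The next members by p in that test were kdn and Tim8, with the values already given. The interaction call was lost without any 1 of 9 libraries, with values from -1.18 to -0.96. It held without EcRi 0.5 M replicate 2, control 0.5 M replicate 1 or EcRi 0.15 M replicate 1. The diet call in EcRi larvae was lost without EcRi 0.5 M replicates 1 (-0.56) or 3 (-0.57) or EcRi 0.15 M replicates 2 (-0.48) or 3 (-0.51), and in the fit of the 6 libraries alone (adjusted p = 0.0582).

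Tim17b and Tim17a2 encode forms of the same inner membrane subunit, which in yeast is part of the channel for proteins with a cleavable targeting sequence, and they differed in opposite directions. Tim17b gave 273, 234 and 211 in EcRi 0.5 M libraries, against 419, 392 and 371 in control 0.5 M libraries, with no overlap. On the 0.15 M diet it gave 267, 404 and 295 in EcRi libraries, against 417, 301 and 269 in control libraries, which overlap almost completely. The difference was -0.72 ± 0.18 on 0.5 M sucrose (limma adjusted p = 0.00992) and -0.03 ± 0.18 on 0.15 M sucrose (limma adjusted p = 0.961). Tim17a2 had low values throughout. It gave 39.4, 44.4 and 35.0 in EcRi 0.5 M libraries, against 8.68, 16.5 and 15.1 in control 0.5 M libraries. On the 0.15 M diet it gave 46.4, 36.6 and 23.1 in EcRi libraries, against 10.9, 4.61 and 12.2 in control libraries. All 6 EcRi libraries were above all 6 control libraries. The difference was 1.53 ± 0.38 on 0.5 M sucrose and 1.87 ± 0.38 on 0.15 M sucrose, folds of 2.89 and 3.65 (limma adjusted p = 0.00875 and 0.00291), called without each library in turn, and such folds are understated by the added 1 at low signal. Related genes such as these can share reads, and the sources used here do not give the counting rule. Testis markers, of which 4 of 8 were in the table, summed to 165 ± 19.0 in EcRi and 86.8 ± 6.16 in control libraries on 0.5 M sucrose, and to 92.1 ± 30.8 in EcRi and 55.8 ± 10.9 in control libraries on 0.15 M sucrose (SD, n = 3 each). Among them Mst87F was called higher in EcRi than in control larvae on both diets, by 2.43 on 0.5 M and by 1.68 on 0.15 M sucrose (limma adjusted p = 0.000216 and 0.00666). Mst87F made up much of these sums in EcRi libraries. On 0.5 M sucrose it averaged 109 in EcRi and 20.2 in control libraries, and on 0.15 M sucrose 48.0 and 14.45. Of the 4 markers, differences were positive for 2 and negative for 2 on 0.5 M sucrose, and positive for 3 on 0.15 M sucrose. The marker topi was called lower on 0.5 M sucrose, at -1.29, and had -1.07 on 0.15 M sucrose, not called (limma adjusted p = 0.0292 and 0.103). All 12 libraries are labelled female, and female larvae have no testis.

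Tim9a, another small chaperone between the membranes, gave 69.7, 74.7 and 70.4 in EcRi 0.5 M libraries, against 35.3, 50.2 and 39.7 in control 0.5 M libraries. The 0.15 M values were 78.9, 101 and 53.2 in EcRi libraries, against 45.2, 36.7 and 28.6 in control libraries. EcRi was above control without overlap on both diets. The difference was 0.78 ± 0.25 on 0.5 M sucrose (limma adjusted p = 0.0366) and 1.03 ± 0.25 on 0.15 M sucrose (limma adjusted p = 0.0102). The call on 0.15 M sucrose was lost without EcRi 0.15 M replicate 2 (0.82, adjusted p = 0.0724) or control 0.15 M replicate 3 (0.87, adjusted p = 0.0582). The call on 0.5 M sucrose was lost under upper quartile scaling (0.70) and without any of the 3 EcRi 0.5 M libraries or control 0.5 M replicate 1 or 3 (0.67 to 0.80). Among the 7 other import genes, Hsc70-5, the mitochondrial Hsp70 that pulls proteins inward, was the one called, at 0.52 for diet in EcRi larvae (limma adjusted p = 0.0195), and the chaperonin Hsp60 had 0.34 for genotype on 0.5 M sucrose (limma adjusted p = 0.209).

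The genes encoded in mitochondrial DNA were low in EcRi larvae on high sugar. All 12 measured genes had lower means in EcRi 0.5 M than in control 0.5 M and than in EcRi 0.15 M libraries. Limma called 8 of 12 lower for genotype on 0.5 M sucrose, beside 8.11% of all genes. For diet in EcRi larvae 12 of 12 were called lower, beside 10.4%. The median difference was -1.70 and -1.82 in these contrasts, where the nuclear members had 0.02 and 0.23. mt:CoI, the catalytic subunit of complex IV, gave 29314, 41803 and 39002 in EcRi 0.5 M libraries, against 149810, 84596 and 120080 in control 0.5 M and 140980, 130560 and 109240 in EcRi 0.15 M libraries. Control 0.15 M libraries had 135930, 83909 and 73785. The 3 EcRi 0.5 M libraries lay under every other library, with differences of -1.66 ± 0.28 for genotype and -1.80 ± 0.28 for diet (limma adjusted p = 0.00046 and 0.000456). mt:ATPase6 of complex V differed by -1.80 for genotype on 0.5 M sucrose, and mt:CoII of complex IV by -1.73 for diet in EcRi larvae (limma adjusted p = 0.000598 and 0.00102). The share of the signal from these 12 genes was 0.868% to 1.26% in EcRi 0.5 M, 2.49% to 3.54% in control 0.5 M, 2.86% to 4.03% in EcRi 0.15 M and 2.07% to 3.97% in control 0.15 M libraries. The interaction called 8 of the 12 lower, with a median of -2.18 and a count of 4 to 10 when 1 library was left out (4 without EcRi 0.5 M replicate 1, EcRi 0.15 M replicate 2 or control 0.15 M replicate 2). EcRi against control on 0.15 M sucrose called 0 of the 12 by limma, with 3 at an unadjusted p under 0.05 and a median of 0.50. Diet in control larvae called 0, with 1 at an unadjusted p under 0.05 and a median of 0.40. Of 8 genes for mitochondrial DNA upkeep and biogenesis, among them TFAM and mtSSB, limma called 0 in each of the 5 comparisons, and at most 1 had an unadjusted p under 0.05 in any of them. The smallest p among these 8 was that of mtSSB, the mitochondrial single-stranded DNA binding protein, for diet in EcRi larvae (-0.81, limma adjusted p = 0.0893).

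**Figure D4:**
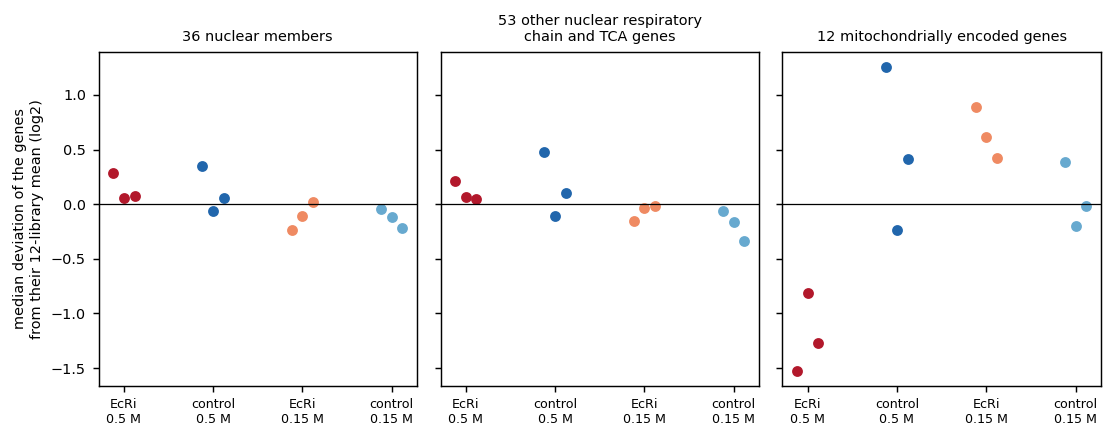
Each point is a library, and its height is the median, over the genes of a set, of log2(signal + 1) minus the gene's 12-library mean. Sets are the 36 members, 53 other nuclear genes of the same complexes and cycle, and 12 mitochondrially encoded genes, with EcRi 0.5 M, control 0.5 M, EcRi 0.15 M and control 0.15 M from left to right in each. The nuclear sets stay within 0.5 of 0, while the EcRi 0.5 M libraries stand at -1.52, -0.81 and -1.27 for the mitochondrially encoded set.

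The other nuclear genes of these complexes and the cycle, 53 genes under other symbols, had calls in both directions. Counted in either direction, their called shares were below those of all genes for genotype on both diets and for diet in EcRi larvae. No test was made of these shares. Genotype called 4 higher and 5 lower of the 53 on 0.5 M sucrose, beside 10.9% and 8.11% of all genes. On 0.15 M sucrose it called 1 higher, beside 6.19%. Diet called 7 higher and 3 lower in EcRi larvae, beside 14% and 10.4%. These diet calls were 3 higher and 1 lower without EcRi 0.5 M replicate 1 or EcRi 0.15 M replicate 2, 4 and 1 without EcRi 0.15 M replicate 1, and 13 and 3 without control 0.5 M replicate 1. The genotype calls on 0.5 M sucrose were 1 higher and 3 lower without EcRi 0.5 M replicate 1 or control 0.5 M replicate 3, 8 and 3 when control 0.5 M replicate 1 was left out, and 2 and 7 when control 0.5 M replicate 2 was. TCA genes were among those called higher. Nc73EF, the E1 subunit of oxoglutarate dehydrogenase, was higher in EcRi than in control larvae by 0.97 on 0.5 M sucrose and by 0.61 on 0.15 M sucrose (limma adjusted p = 0.000238 and 0.0136). The 3 subunits of NAD-dependent isocitrate dehydrogenase, CG5028, l(1)G0156 and CG6439, were called higher by genotype on 0.5 M sucrose (0.55, 0.59 and 0.50) and by diet in EcRi larvae (1.01, 0.90 and 0.82). CG4769 and CG3731, cytochrome c1 and a core protein of complex III, were called higher by diet in EcRi larvae (0.59 and 0.57, limma adjusted p = 0.0225 and 0.0236). Among the 5 lower genes, Ucrh, a small subunit of complex III, differed most, at -1.14, followed by CG40002 of complex I at -0.99 (limma adjusted p = 0.0016 and 0.00374), and CG34439 of complex I had -0.69. In control larvae diet called 0 of the 53 by limma, with 18 at an unadjusted p under 0.05, yet 52 of the 53 means were higher on 0.5 M sucrose, the median difference being 0.33. Without control 0.5 M replicate 1 the median was 0.15, and 52 were still positive. In EcRi larvae 42 were positive as deposited but 22 under upper quartile scaling and 23 under quantile normalisation.

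The genes that bring pyruvate into the cycle were higher on sugar in EcRi larvae. There diet called 8 of 8 higher, by 0.55 to 1.23, beside 14% of all genes. The count was 5 under upper quartile scaling and 4 under quantile normalisation. It was also 4 without EcRi 0.5 M replicate 1 or EcRi 0.15 M replicate 2. CG5261, the E2 subunit of pyruvate dehydrogenase, gave 1101, 985 and 865 in EcRi 0.5 M libraries, against 376, 386 and 496 in EcRi 0.15 M libraries (difference 1.23, limma adjusted p = 0.000105). Pdk, the kinase that switches pyruvate dehydrogenase off, was higher in EcRi than in control larvae on 0.5 M sucrose by 0.83 and for diet in EcRi larvae by 0.88 (limma adjusted p = 0.00288 and 0.00252). Pdp, the opposing phosphatase, was called higher by diet in EcRi larvae as well (0.68, limma adjusted p = 0.00572). CG5261 and Pdk were called in the interaction, at 0.96 for CG5261 and 1.11 for Pdk (limma adjusted p = 0.0321 and 0.0227). The interaction called 0 of the 8 without EcRi 0.5 M replicate 1, control 0.5 M replicate 3, EcRi 0.15 M replicate 1 or 2, or control 0.15 M replicate 2. In control larvae diet called 0 of the 8 by limma, with 4 at an unadjusted p under 0.05.

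Muscle, a tissue rich in mitochondria, left a variable trace in these libraries that moved with the diet difference of EcRi larvae. Its 15 markers summed to 92130, 45330 and 48980 in EcRi 0.5 M libraries, against 19870, 10640 and 33830 in EcRi 0.15 M libraries, and 11 of the 15 were called higher there (3 to 14 with 1 library left out, 3 of them without EcRi 0.5 M replicate 1, and 1 after quantile normalisation). In control larvae the sums overlapped, at 33420, 45250 and 50830 on 0.5 M sucrose and 48760, 52880 and 24790 on 0.15 M sucrose. EcRi 0.5 M replicate 1, the library with the most muscle marker signal, was also the highest of the 12 for each of the 8 members called higher there. EcRi 0.15 M replicate 2, with the least, was the lowest of the 12 for kdn and blw among these 8. The lowest library was EcRi 0.15 M replicate 1, with the next least muscle marker signal, for skap, Acon, SdhB and Cyt-c-p. It was control 0.15 M replicate 3 for ND23 and control 0.5 M replicate 1 for SdhA. Without EcRi 0.5 M replicate 1, skap, SdhB, kdn and Acon were still called for diet in EcRi larvae, and the other 5 calls of that comparison were lost. On 0.5 M sucrose the muscle sums of EcRi and control libraries overlapped, and 0 of the 15 markers was called by limma, with 0 at an unadjusted p under 0.05. EcRi against control on 0.15 M sucrose gave lower means for 15 of the 15, with 1 called. Hemocyte markers (6 of 7 in the table) summed to 8711 to 10820 in EcRi 0.5 M libraries. Their sums were 5942 to 8127 in control 0.5 M and 5332 to 7560 in EcRi 0.15 M libraries. For diet in EcRi larvae 1 of the 6 was called higher and 2 lower, beside 14% and 10.4% of all genes. The part of muscle or hemocyte RNA in the diet and genotype differences was not tested.

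Transcript length moved with the differences of the members and of genes in general. Lengths were those of the longest transcript in the Ensembl annotation, matched by gene identifier for 35 members (all but Cyt-c-p) and 9605 genes. Across the 35 members, which share the same libraries, Spearman's rho between length and log2 difference was 0.54 for genotype on 0.5 M sucrose, 0.62 for diet in EcRi larvae and 0.69 for the interaction. Over all genes it was 0.31, 0.23 and 0.38. For genotype on 0.15 M sucrose and diet in control larvae it was -0.28 and -0.35 over the members, and -0.14 and -0.23 over all genes. The 18 members with a transcript under 1000 bases had a median of -0.04 for genotype on 0.5 M sucrose and 0.10 for diet in EcRi larvae, and the 17 longer ones had 0.22 and 0.39. All 1621 genes of the table under 1000 bases had medians of -0.32 and -0.29 in these contrasts. The members called lower, Tim8, Tom7 and Tim17b, have transcripts of 761, 539 and 961 bases, and so are in the short class, as are Tim17a2 (991 bases) and Tim9a (516 bases), which were called higher. The part of length in these results was not tested.

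**Figure D5:**
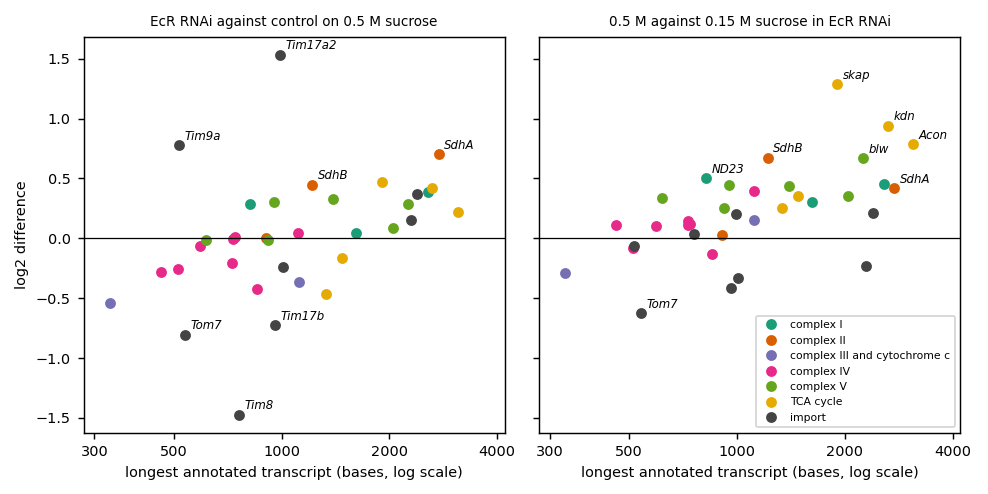
Each point is a member, coloured by role, with the length of its longest annotated transcript on a log axis and its log2 difference on the vertical axis. EcRi against control on 0.5 M sucrose is on the left and 0.5 M against 0.15 M sucrose in EcRi larvae on the right, and called members are named. Longer transcripts sit higher in both panels (rho 0.54 and 0.62), with the short Tim17a2 and Tim9a high on the left.

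Neighbouring genes limit some values. Exons of 12 members overlap a gene on the opposite strand in the annotation, and CoVIb overlaps CG18809 on its own strand. The sources used here do not give the strand setting, so reads in the bases shared by the 2 genes of such a pair may not be told apart. The length of each overlap was not worked out. For SdhA, SdhB and skap the partners CG11257, CG15237 and CG11964 had mean signals of 37.7, 31.7 and 181, against 675, 441 and 1962 for the members. The partners of Acon, CG43345 and CG43346, are not among the genes of the deposited table, so their signal is not known. Cyt-c-p was not matched to the annotation, so its overlaps are not known. For Tom20 the partner Gabat had 210, against 174 for the member. For CoVIIc the partner oys had 1217, against 736 for the member, and oys was called lower in EcRi than in control larvae by -1.03 on 0.5 M and -1.17 on 0.15 M sucrose (limma adjusted p = 9.57e-05 and 3.44e-05). The part of these partners in the members' values was not tested.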

How the data were processed

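The deposited table holds the authors' normalised signal of each gene in 12 libraries, and each column was matched to its sample by title. Cufflinks 1.1.0, edgeR, Bowtie 0.12.7 and TopHat 1.3.2 appear in the submitters' processing notes, which assign no roles. Genome build, annotation, strand setting and gene filter are not given in the sources used here; no coordinates are printed. The signal is not whole, and no value is 0. Since it is not a count, it was analysed as log2(value + 1) with limma 3.58.1 in R 4.3.3, in 1 model of 4 groups using empirical Bayes moderation (trended, robust) and Benjamini-Hochberg adjustment over all 10047 genes. The number of reads per library was not worked out here, so counting error is not given. The fit was also run on simulated counts, which are unlike this normalised signal, and that run does not check the calls given here.

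Members and gene lists were chosen with earlier results of these data known, so no test was made over a list. Named genes are the called members, the 3 of smallest p where fewer were called, the member of smallest p in each role, and the listed genes of smallest p. Replicate numbers are shared between groups, and the main fit did not use them to pair the libraries. Alternatives were pseudocounts of 0.1 and 10, no filter, a mean of at least 10, 2 other scalings, library weights, the replicate block, fits of 6 libraries and fits without each library.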

Additional observations from a re-analysis of the deposited data

Results flagged for a closer look

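Tom7 was the member whose diet change differed between the genotypes by the test of that difference. The interaction, EcRi change minus control change, was -1.11 ± 0.28 on the log2 scale (SE), with limma's Benjamini-Hochberg adjusted p = 0.0396. Signal was lower on 0.5 M than on 0.15 M sucrose by the means of EcRi larvae (139 against 220.4) and higher by those of control larvae (242 against 174). The adjusted p ranged up to 0.118 when 1 library was left out. Groups of 3 were not tested for single outlying libraries.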

How the results depend on the processing

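Of the 20 calls of single members, 20 held with pseudocounts of 0.1 or 10, no filter, a mean of at least 10 or library weights. Upper quartile scaling ended 4, quantile normalisation 5, and fits of the 6 libraries 3 of 19. Leaving out 1 library ended between 2 and 8 of them, EcRi 0.5 M replicate 1 the most, and no call changed direction. With library weights 17 members were called for genotype on 0.5 M sucrose, 4 for diet in control larvae and 8 in the interaction, while the shares of all genes called became 36.1%, 9.63% and 15.4%; control 0.5 M replicate 1 had a weight of 0.241 and control 0.5 M replicate 3 one of 5.89. Upper quartile scaling called 2 in the interaction. It moved the members' diet median in EcRi larvae to 0.0223 and quantile normalisation to 0.0206. Without 1 library the counts of called members ranged from 5 to 9 for genotype on 0.5 M sucrose, 1 to 3 for genotype on 0.15 M, 4 to 13 for diet in EcRi larvae, 0 to 2 for diet in control larvae and 0 to 2 for the interaction. Members' medians ranged from -0.09 to 0.13 for genotype on 0.5 M sucrose, -0.05 to 0.11 on 0.15 M, 0.15 to 0.30 for diet in EcRi larvae, 0.16 to 0.34 in control larvae and -0.12 to 0.12 for the interaction.

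Same-numbered libraries had deviations from their group means that correlated between -0.196 and 0.165. For libraries of unlike number this range was -0.170 to 0.215. With 3 libraries per group, such correlations cannot decide whether the numbers pair the libraries. With the replicate block 6 members were called for genotype on 0.5 M sucrose and 8 for diet in EcRi larvae, SdhB (adjusted p = 0.0692) and Cyt-c-p (adjusted p = 0.051) being lost, and it changed no other call. A left-out library leaves 2 in its group, whose spread is then shared with the other groups.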

Other observations

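Carriers of the mitochondrial membranes were measured as a further group of 5 genes. Mpcp, the phosphate carrier, was called higher in EcRi than in control larvae on 0.5 M sucrose by 0.59 and higher on 0.5 M than on 0.15 M sucrose in EcRi larvae by 0.94 (limma, Benjamini-Hochberg adjusted p = 0.0264 and 0.00158). sesB, the adenine nucleotide translocase that exchanges ATP for ADP, was called higher for diet in EcRi larvae by 0.55 (limma adjusted p = 0.0455). porin, the outer membrane channel, had 0.49 for genotype on 0.15 M sucrose and was not called (limma adjusted p = 0.0556). The citrate carrier sea and the second translocase gene Ant2 were called in no comparison. Muscle markers moved with that diet contrast, and their part in these differences was not tested.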
